A study of Arabidopsis thaliana with 14 samples.

Results

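AT3G22620 and AT2G48130 are 2 Arabidopsis genes of the lipid-transfer protein family, each read by 1 probe set. The reference used here gives neither a symbol of its own. They are 2 of the 22746 probe sets on the array that are not controls. They were chosen from these data because their signals were high at 3 h with compound 7606596, against untreated seedlings, and no longer so at 12 h. Every value of these 2 genes with 7606596 is therefore a description and was not tested. Their comparisons without 7606596 arrays were tested, although those with untreated seedlings of 3 h or 12 h share arrays with the contrast that chose the genes.

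Lipid-transfer proteins are small secreted plant proteins, held together by disulphide bridges between conserved cysteines, with a cavity that takes up fatty acids and other lipids. Many are made in the epidermis or in suberised root tissue, and members with a glycosylphosphatidylinositol anchor sit on the outer face of the plasma membrane. The family is known for roles in building the cuticle and suberin, and for members whose transcripts respond to drought, abscisic acid or pathogens.

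The 14 Affymetrix ATH1 arrays held whole wild-type Col-0 seedlings in 7 groups of 2 arrays. Seedlings were raised at 22 °C in days of 16 h light and 8 h dark, spent 1 day in liquid 0.5x MS, and entered the experiment 6 days after germination. They received 50 µM of 7606596 or 50 µM of 5929745, compounds known here only by code name, and were collected 3 h or 12 h later. Untreated seedlings were collected at 0 h, 3 h and 12 h, and the labels do not say whether they received the solvent. The labels do not tell separate cultures from other kinds of repeat, so the p-values measure the spread between these arrays. In whole seedlings, fewer cells of a type and less RNA per cell cannot be told apart.

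Signals are deposited MAS5 intensities on a linear scale, and both genes were above the filter on dim probe sets (42.3) on every array. The median of an array lay between 152.0 and 168.8. Log2 signals of the 2 arrays of a group correlated across probe sets with r from 0.983 to 0.989, where probe sets are not independent replicates. Poly-A control RNAs, spiked into each sample ahead of labelling, divided the arrays. For 22 of their 27 probe sets, the 4 untreated arrays of 3 h and 12 h lay above the other 10, so any comparison of those untreated groups with the others crosses that step. Comparisons of treated seedlings with 0 h, or of the compounds with each other, do not cross it, and are given as the values without those 4 arrays.

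In untreated seedlings AT3G22620 fell with time. Its signals were 728 and 1079 at 0 h, 317 and 380 at 3 h, and 121 and 176 at 12 h. The arrays of the 3 times did not overlap. As a share of the 0 h mean, the 3 h arrays stood at 35.0% and 42.1% and the 12 h arrays at 13.4% and 19.4%.

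AT2G48130 took the same course in untreated seedlings down to 3 h. Its signals were 251 and 404 at 0 h, 91.1 and 130.3 at 3 h, and 87.5 and 73.4 at 12 h. The 0 h arrays lay above all later untreated arrays, and the 12 h arrays lay just below those of 3 h. The 3 h arrays stood at 27.8% and 39.8% of the 0 h mean, and the 12 h arrays at 26.7% and 22.4%.

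With 7606596 for 3 h, AT3G22620 reached 2002 and 2646, which were its highest signals on any of the 14 arrays. Both arrays lay above the 0 h level, at 222% and 293% of its mean. By 12 h the signals with 7606596 were 199 and 196. These lay just above the highest of the other 12 h arrays, 176, and below every array of 0 h and 3 h.

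AT2G48130 gave 757 and 772 after 3 h with 7606596, at 231% and 236% of the 0 h mean, also its highest signals. At 12 h its arrays had parted, at 129.5 and 78.4. The first lay above the other 12 h arrays and within the range of the untreated 3 h arrays, and the second lay among the other 12 h arrays. The higher of those arrays was 1.65 times the lower, the widest spread within a group for this gene.

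With 5929745 neither gene stood above the untreated level in this way. AT3G22620 gave 363 and 281 at 3 h and 176 and 166 at 12 h. The 3 h arrays overlapped those of untreated seedlings of 3 h, and the 12 h arrays lay within the range of the untreated ones. AT2G48130 gave 136 and 102 at 3 h and 75.0 and 85.0 at 12 h, and at both times its arrays overlapped those of untreated seedlings.

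**Figure D1:**
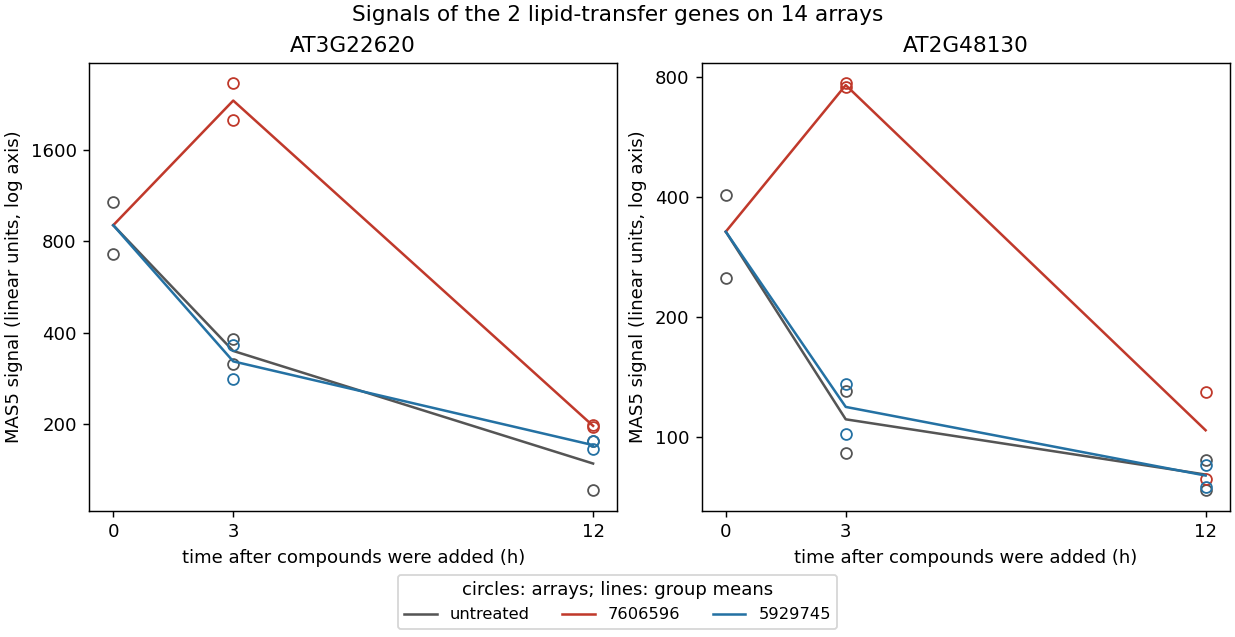
MAS5 signal on a log axis against hours after the compounds were added, for AT3G22620 (left) and AT2G48130 (right). Circles are single arrays, 2 per group, and lines join group means from the shared 0 h group; both genes lie highest with 7606596 at 3 h (means of 2324 and 764) and all 3 lines end low at 12 h.

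By mean signal the groups of AT3G22620 fell in the order 7606596 at 3 h (2324 ± 456, SD, n = 2 here and below), untreated at 0 h (903 ± 248), untreated at 3 h (348 ± 44.9), 5929745 at 3 h (322 ± 58.2), 7606596 at 12 h (197 ± 2.32), 5929745 at 12 h (171 ± 7.18) and untreated at 12 h (148 ± 38.7). The arrays of untreated and 5929745 seedlings overlapped at 3 h, and so did those of the last 2 groups. All other neighbours in this order were separated by their arrays.

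For AT2G48130 the order began in the same way, with 7606596 at 3 h (764 ± 10.5, SD, n = 2) and untreated seedlings at 0 h (328 ± 108). The 5 groups that followed ran from 119 ± 24.0 with 5929745 at 3 h, through 111 ± 27.7 for untreated seedlings at 3 h and 104 ± 36.1 with 7606596 at 12 h, to 80.5 ± 9.95 for untreated seedlings and 80.0 ± 7.11 with 5929745 at 12 h. Each of these groups overlapped the next, so neighbours in this order are not resolved. The arrays of untreated and 5929745 seedlings at 3 h nonetheless all lay above those of untreated and 5929745 seedlings at 12 h.

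The values that chose the genes were as follows. At 3 h AT3G22620 was 6.67 times as high with 7606596 as in untreated seedlings, a log2 difference of 2.67 ± 0.20 (SE, limma, on log2 of signal + 16). AT2G48130 was 6.90 times as high, at 2.64 ± 0.24. Among 15922 kept probe sets these were the 4th and 5th largest log2 differences, in a comparison in which 3.09% of the probe sets were called higher, where called means an adjusted p under 0.05.

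Against 5929745 at the same dose and time, which leaves out the untreated arrays, the 3 h differences with 7606596 were of like size. The means stood at 7.22 times for AT3G22620 (2.79 ± 0.20 on the log2 scale) and 6.42 times for AT2G48130 (2.54 ± 0.24). Of all kept probe sets, 0.735% were called higher in that comparison. The comparison shares the 7606596 arrays with the contrast that chose the genes.

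The level with 7606596 at 3 h also exceeded the starting level. Against untreated seedlings at 0 h the means were 2.57 times as high for AT3G22620 (1.36 ± 0.20, SE, on the log2 scale) and 2.33 times as high for AT2G48130 (1.22 ± 0.24). The lower of the 7606596 arrays at 3 h was 1.86 and 1.87 times the highest of the other 12 arrays for the 2 genes, in that order. Both 7606596 arrays of 3 h lay above all others for 469 of the 15922 kept probe sets (2.95%).

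From 3 h to 12 h with 7606596, the mean signal of AT3G22620 became 11.8 times lower, at -3.44 ± 0.20 (SE) on the log2 scale. That of AT2G48130 became 7.35 times lower, at -2.73 ± 0.24. The difference from untreated seedlings at 12 h was 0.40 for AT3G22620 (95% interval -0.02 to 0.81) and 0.28 for AT2G48130 (-0.22 to 0.79). For AT3G22620 the value was 0.15 without untreated 12 h replicate 1 and 0.64 without untreated 12 h replicate 2. For AT2G48130 the difference came from 1 of the 2 arrays with 7606596: without the array at 129.5 it was -0.027, and without the array at 78.4 it was 0.60.

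Set against 5929745 at 12 h, the log2 difference with 7606596 was 0.19 for AT3G22620 (95% interval -0.22 to 0.61) and 0.29 for AT2G48130 (-0.22 to 0.80). The change of the difference from untreated seedlings between 3 h and 12 h was -2.28 ± 0.28 (SE) for AT3G22620 and -2.35 ± 0.34 for AT2G48130. These were the third lowest and the second lowest of all kept probe sets. Such places follow from how the genes were chosen, which was by a response at 3 h that was lost by 12 h. Relative to 0 h, the 7606596 means at 12 h were 4.58 times lower for AT3G22620 and 3.15 times lower for AT2G48130.

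The comparisons without 7606596 arrays were tested for both genes, in 9 contrasts and 18 tests, with p-values adjusted over all 15922 kept probe sets. Of the 18, 10 were called, all of them lower, 6 for AT3G22620 and 4 for AT2G48130. In the contrasts of those calls, between 4.13% and 16% of all kept probe sets were called lower. The calls are not independent of each other, since all those against 0 h share the same 2 untreated arrays. The 8 that were not called were the 6 between 5929745 and untreated seedlings and the 2 between the later times of AT2G48130.

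With 5929745 both genes were lower at 3 h than at 0 h, a comparison that shares no array with those that chose the genes. AT3G22620 fell 2.81-fold (log2 difference -1.43 ± 0.20, SE, limma adjusted p = 0.000102). AT2G48130 fell 2.75-fold (-1.32 ± 0.24, limma adjusted p = 0.00128). Of all kept probe sets 4.13% were called lower here, and the 2 genes held the places 32 and 46 from the lowest difference.

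At 12 h with 5929745 the fall from 0 h was larger. The mean of AT3G22620 was 5.30 times lower (-2.27 ± 0.20, SE, limma adjusted p = 6.21e-08) and that of AT2G48130 was 4.09 times lower (-1.80 ± 0.24, limma adjusted p = 1.27e-05). Here 12.5% of the kept probe sets were called lower. Between 3 h and 12 h with 5929745, AT3G22620 fell 1.89-fold (-0.85 ± 0.20, limma adjusted p = 0.00381), where 11.5% were called lower. That last call rested on the 3 h array at 363, without which the difference was -0.67 with a limma adjusted p of 0.0675. AT2G48130 had a difference of -0.48 (95% interval -0.99 to 0.02, limma adjusted p = 0.159) over the same hours, with arrays that did not overlap.

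Untreated seedlings gave falls of like size. Between 0 h and 3 h AT3G22620 fell 2.59-fold (-1.31 ± 0.20, SE, limma adjusted p = 0.000279) and AT2G48130 fell 2.96-fold (-1.42 ± 0.24, limma adjusted p = 0.000861), in a comparison in which 5.4% of the kept probe sets were called lower. By 12 h AT3G22620 was 6.09 times lower than at 0 h (-2.48, limma adjusted p = 1.86e-08) and AT2G48130 4.07 times lower (-1.80, limma adjusted p = 1.14e-05), where 15.2% were called lower. These comparisons cross the spike-in step and its part in them was not tested. They also use untreated arrays of 3 h or 12 h, which entered the choice of the genes. A choice by a large difference from untreated seedlings at 3 h favours genes low on those arrays. The p-values at 3 h are therefore not free of the choice. The comparisons of 5929745 with 0 h, which do not cross the spike-in step and use none of those arrays, gave falls of 2.81-fold and 2.75-fold at 3 h.

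From 3 h to 12 h in untreated seedlings, where both groups lie on the same side of the spike-in step, AT3G22620 fell 2.35-fold (-1.16 ± 0.20, SE, limma adjusted p = 0.000178). For AT2G48130 the difference was -0.38 (95% interval -0.89 to 0.13, limma adjusted p = 0.24). In this comparison 16% of the kept probe sets were called lower, and both of its groups entered the choice of the genes. Whether the 2 genes differed from each other in this late fall was not tested.

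Against untreated seedlings of the same time, 5929745 gave no call for either gene. At 3 h the log2 difference was -0.11 for AT3G22620 (95% interval -0.53 to 0.30, limma adjusted p = 0.834) and 0.10 for AT2G48130 (-0.41 to 0.60, limma adjusted p = 0.889), in a comparison in which 1.15% of the kept probe sets were called in either direction. At 12 h it was 0.20 for AT3G22620 (-0.21 to 0.62, limma adjusted p = 0.677) and -0.0050 for AT2G48130 (-0.51 to 0.50, limma adjusted p = 0.994), where 1.4% were called. The intervals reach at most 0.62 on the log2 scale. They do not show that 5929745 left the genes unaltered. These comparisons too cross the spike-in step and use untreated arrays that entered the choice of the genes.

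The change of the 5929745 effect between 3 h and 12 h was 0.32 for AT3G22620 (95% interval -0.27 to 0.91, limma adjusted p = 0.715) and -0.10 for AT2G48130 (-0.82 to 0.61, limma adjusted p = 0.932). In that test 0.113% of the kept probe sets were called in either direction.

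**Figure D2:**
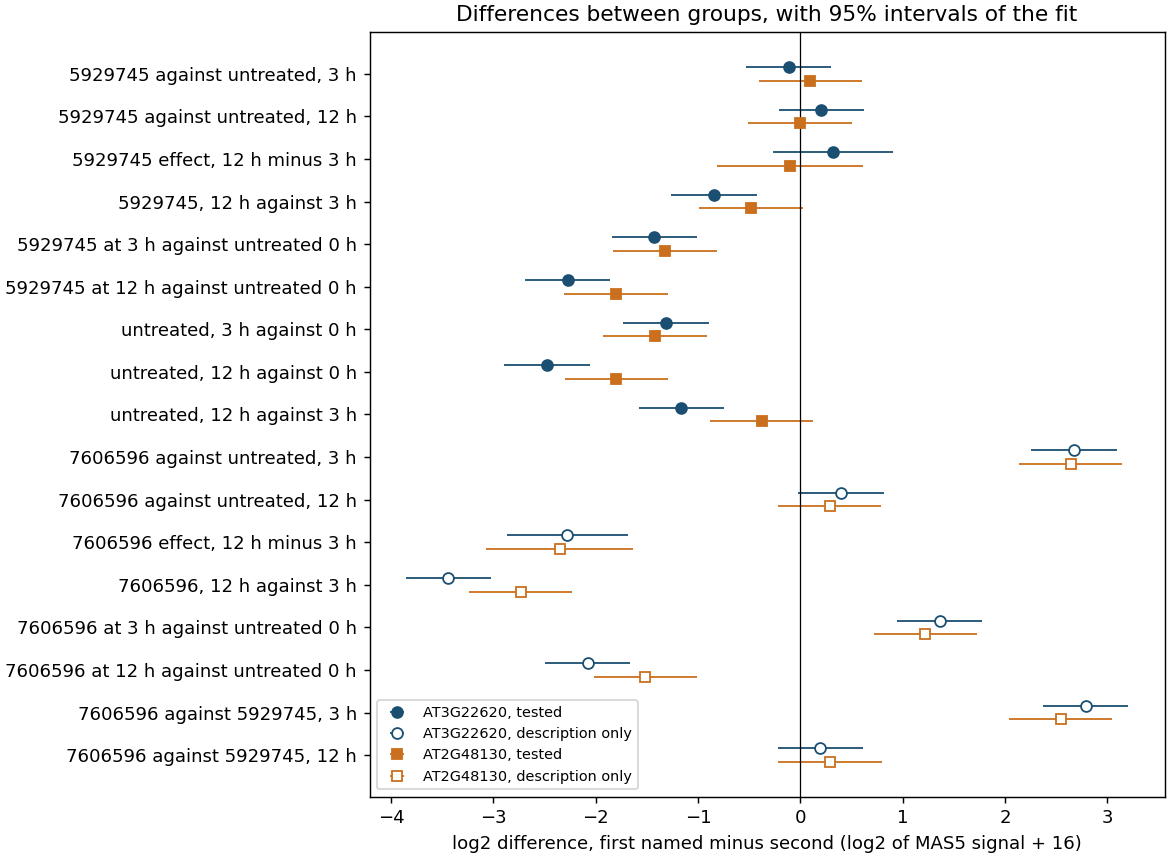
Log2 difference between groups (log2 of MAS5 signal + 16, first named minus second) for AT3G22620 (circles) and AT2G48130 (squares), with 95% intervals of the fit over 14 arrays. Filled symbols were tested and open symbols are descriptions; the differences of 7606596 from the other groups of 3 h lie beyond 2.5, those between 5929745 and untreated seedlings span 0, and all values against 0 h except those with 7606596 at 3 h lie below -1.

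The other lipid-transfer genes were followed through a list of 82 genes, of which 39 had a probe set named in the annotation and 21 passed the filter on dim probe sets. The list was drawn up by family membership, although with earlier results of these data known. At 3 h with 7606596, limma called 0 of the 21 higher and 0 lower than in untreated seedlings. Over all kept probe sets 3.09% were called higher and 1.93% lower. Of the 21, 3 had an unadjusted p under 0.05, a looser threshold at which no share over all kept probe sets was taken. The median log2 difference of the 21 was -0.16, against -0.02 over all kept probe sets, and they ran from -0.51 to 0.78. Every one lay below the 2.64 of AT2G48130, but that gap follows from how the 2 genes were chosen, which was by this comparison.

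At 12 h with 7606596, limma called 0 of the 21 higher and 1 lower than in untreated seedlings, in a comparison with 1.14% of all kept probe sets called higher and 0.402% lower. That gene was AT2G27130, with signals of 195 and 181 against 287 and 333 (-0.67 ± 0.16, SE, limma adjusted p = 0.0412). The call was lost without any of the arrays 7606596 12 h replicate 1, untreated 12 h replicate 1 or untreated 12 h replicate 2, and also with no filter or no variance trend. The median of the 21 was -0.0023, beside -0.02 over all kept probe sets.

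With 5929745, limma called 0 of the 21 in either direction at 3 h and 0 at 12 h, where 1.15% and 1.4% of all kept probe sets were called. At an unadjusted p under 0.05 there were 3 and 4 of the 21. The medians of the 21 were 0.08 and -0.02. Between the compounds, limma called 0 of the 21 at 3 h, where 0.917% of all kept probe sets were called in either direction, and 1 at 12 h. At 3 h 2 of the 21 had an unadjusted p under 0.05. No share over all kept probe sets was taken at the unadjusted threshold.

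The gene called between the compounds was AT3G53980, higher with 7606596 at 12 h. Its signals were 116 and 102 with 7606596 and 32.9 and 52.0 with 5929745 (1.11 ± 0.18, SE, limma adjusted p = 0.00322), where 0.502% of the kept probe sets were called higher. The call was lost without 5929745 12 h replicate 1 or without 7606596 12 h replicate 1. Untreated seedlings at 12 h gave 71.5 and 55.9, between the arrays of the compounds. Neither compound was called against them (0.65 with 7606596, limma adjusted p = 0.077, and -0.46 with 5929745, limma adjusted p = 0.22). At 3 h AT3G53980 gave 903 and 736 with 7606596 against 636 and 539 in untreated seedlings, a difference of 0.47 ± 0.18 that was not called (limma adjusted p = 0.142).

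Other genes of the list also fell with time. In untreated seedlings, limma called 4 of the 21 higher and 2 lower at 3 h than at 0 h, and 4 higher and 8 lower at 12 h than at 0 h. Of all kept probe sets 6.66% were called higher and 5.4% lower at 3 h, and 19.9% higher and 15.2% lower at 12 h. The medians were 0.11 and -0.40, beside 0.03 and 0.05 over all kept probe sets. AT3G53980 had the lowest value at 12 h (-2.73 ± 0.18, SE, limma adjusted p = 1.04e-09), with 515 and 508 at 0 h, 636 and 539 at 3 h, and 71.5 and 55.9 at 12 h. Its difference at 3 h was 0.19 (limma adjusted p = 0.55), not a fall. AT5G48490 went from 8035 and 8218 at 0 h to 1860 and 1849 at 12 h (-2.12 ± 0.13, limma adjusted p = 3.52e-10).

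With 5929745 the list gave 5 genes called higher and 1 lower at 3 h than at 0 h, and 4 higher and 5 lower at 12 h, where 5.55% and 17.1% of all kept probe sets were called higher and 4.13% and 12.5% lower. AT5G55450 was among those that rose, from 93.1 and 18.6 at 0 h to 364 and 261 with 5929745 at 12 h (2.40 ± 0.34, SE, limma adjusted p = 2.42e-05) and to 324 and 370 in untreated seedlings at 12 h (2.56 ± 0.34, limma adjusted p = 1.03e-05). AT3G53980, AT5G48490 and AT5G55450 were singled out after their values had been seen.

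**Figure D3:**
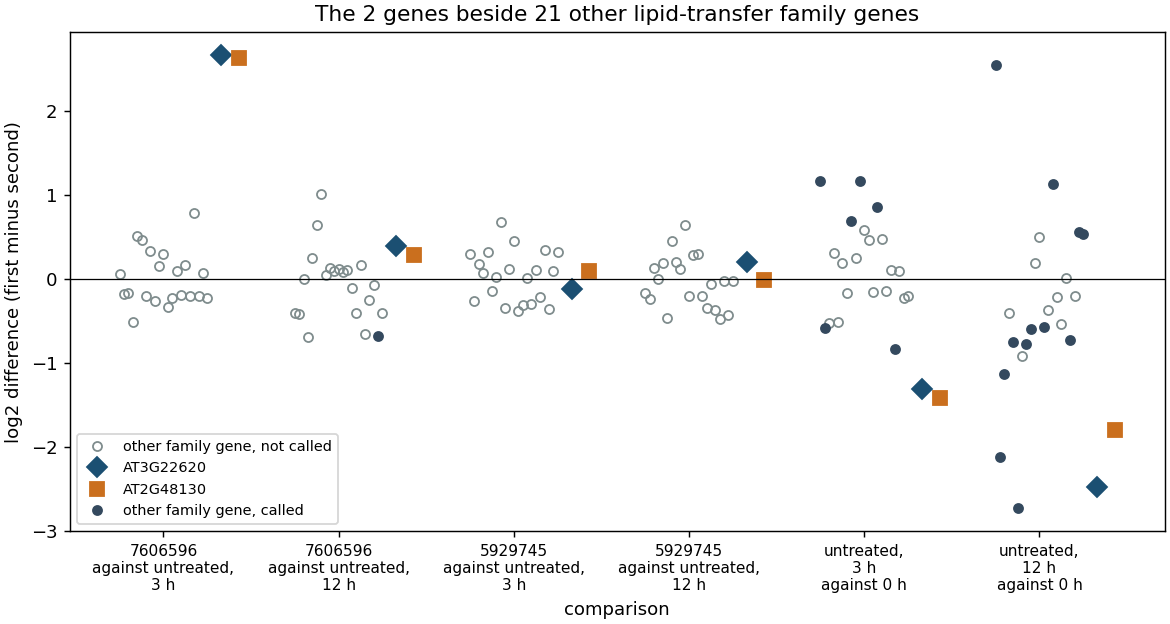
Log2 difference (first group minus second) for 21 other lipid-transfer family genes (dots, filled where called by limma at an adjusted p under 0.05) beside AT3G22620 (diamonds) and AT2G48130 (squares), in 6 comparisons. At 3 h with 7606596 the 21 lie between -0.51 and 0.78. The 2 genes lie at 2.67 and 2.64 in that comparison, which is the one that chose them. In untreated seedlings at 12 h the 21 spread from -2.73 to 2.56.

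Genes of the suberin list and of the cutin and wax list were few on the annotated part of the array. Of 22 suberin genes 1 was named and kept, FACT (AT5G63560), a fatty alcohol caffeoyl-CoA transferase. FACT gave 76.8 and 92.7 with 7606596 at 3 h against 47.6 and 39.3 in untreated seedlings (0.76 ± 0.29, SE, limma adjusted p = 0.136) and was not called. With 5929745 at 3 h FACT gave 82.4 and 56.0, which overlapped the arrays with 7606596 (0.26 between the compounds, limma adjusted p = 0.887). Of 26 cutin and wax genes 1 was kept, DEWAX (AT5G61590), a transcription factor that represses wax synthesis, at 4550 and 4437 against 4331 and 4222 (0.07 ± 0.10, limma adjusted p = 0.751).

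Markers of single tissues could be checked only in part. Of 15 root markers 1 was named and kept, the root-hair expansin EXPA7 (AT1G12560), and 0 of 5 shoot epidermis markers were named. EXPA7 gave 123 and 112 with 7606596 at 3 h against 74.4 and 79.0 in untreated seedlings (0.53 ± 0.27, SE, limma adjusted p = 0.284). The arrays of these 2 groups did not overlap, but the difference was not called. With 5929745 at 3 h EXPA7 gave 118 and 82.6, which overlapped the arrays with 7606596 (0.22 between the compounds, limma adjusted p = 0.901). The part of EXPA7 in the values of the 2 lipid-transfer genes was not tested.

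Over the 14 arrays the 2 genes followed each other. The correlation of their log2 signals was r = 0.97 (Spearman's rho = 0.90), and over the 12 arrays without 7606596 at 3 h it was 0.92 (rho = 0.85). The arrays share time, treatment and scaling, so these are descriptions without a test. Among 1665 probe sets of a single gene whose group means spanned at least 1 on the log2 scale, each of the 2 ranked first for the other over the 14 arrays, which include the 7606596 arrays of 3 h that chose them. Over the 12 arrays without those, AT5G12420 had r = 0.9202 with AT3G22620, against 0.9183 for AT2G48130. The 1665 probe sets were not ranked again over the 12 arrays, so the place of either gene there is not known.

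The next genes in likeness had smaller ranges. After AT2G48130, the genes most like AT3G22620 were AT5G12420 and AT2G38640 (r = 0.94 for both), AT5G48540 (0.93), AT1G64590 (0.92) and AT4G27280 (0.92). Those most like AT2G48130 were, after AT3G22620, AT1G64590 (0.93), AT5G48540 (0.92), AT1G68620 (0.92), AT2G39050 (0.91) and AT5G12420 (0.90). AT2G39050 encodes the lectin EULS3, and the other 6 carry no symbol in the reference used here.

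Among these genes AT5G48540 had the largest ratio of the 7606596 mean at 3 h to the 0 h mean. Its signals were 2195 and 2457 with 7606596 at 3 h, 999 and 823 at 0 h, 660 and 608 in untreated seedlings at 3 h, and 832 and 830 with 5929745 at 3 h. By 12 h it gave 746 and 495 with 7606596, 465 and 426 with 5929745, and 435 and 433 in untreated seedlings. It was highest on the same arrays as the 2 genes, but it was picked by correlation with them over arrays that include these. Its arrays with 5929745 at 3 h lay within the 0 h range, while those of the 2 genes lay below theirs.

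AT4G27280 gave 1659 and 1487 with 7606596 at 3 h, 978 and 881 at 0 h and 684 and 626 in untreated seedlings at 3 h. AT1G68620 gave 492 and 472 with 7606596 at 3 h, 273 and 282 at 0 h and 140 and 154 in untreated seedlings at 3 h. For both genes the 7606596 arrays of 3 h were the highest, as for the 2 lipid-transfer genes, with which they were picked to correlate over these arrays too. At 12 h with 7606596 AT1G68620 was still at 222 and 213, above the 118 and 116 of untreated seedlings.

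EULS3 gave 231 and 230.0 with 7606596 at 3 h, 142 and 204 at 0 h, and 78.8 and 149 in untreated seedlings at 3 h. AT5G12420 gave 169 and 163 with 7606596 at 3 h, 109 and 145 at 0 h, and 71.3 and 77.0 in untreated seedlings at 3 h. In both genes the mean with 7606596 at 3 h was highest and that at 0 h next, as in the 2 lipid-transfer genes. The genes were picked by correlation over arrays that include those of 7606596 at 3 h. In EULS3 the next mean was that with 7606596 at 12 h (124), unlike in the 2 lipid-transfer genes. AT2G38640 and AT1G64590 showed smaller steps, with 7606596 means at 3 h of 212 and 322 against 0 h means of 179 and 273.

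**Figure D4:**
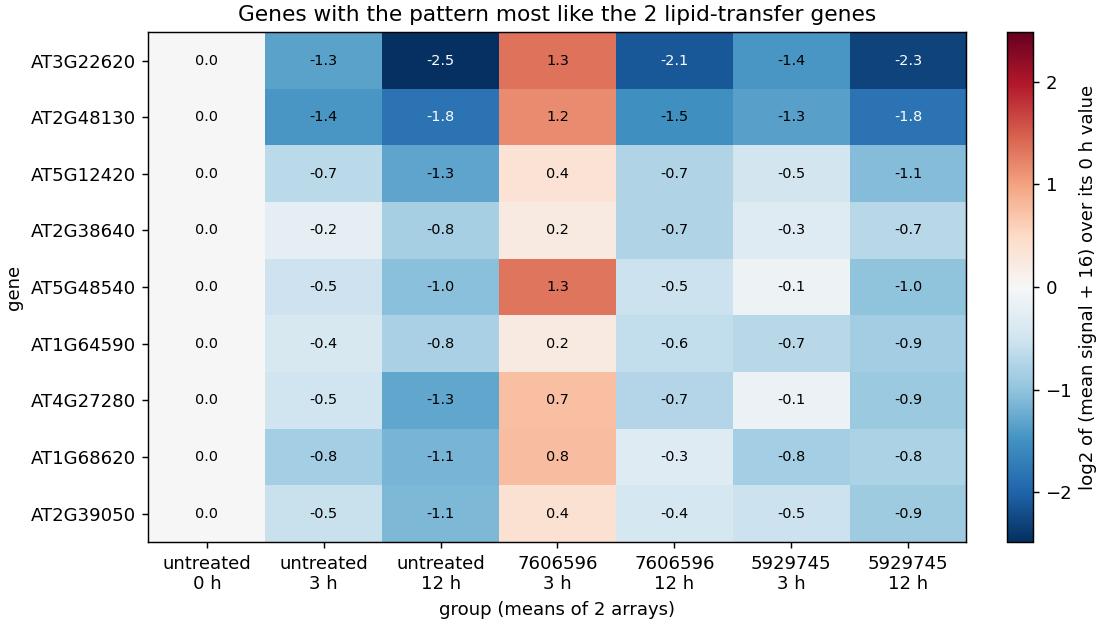
Group means of 2 arrays as log2 difference from untreated seedlings at 0 h (colour, on log2 of MAS5 signal + 16), for AT3G22620, AT2G48130 and the genes most correlated with them over 14 arrays. The genes were chosen for likeness; all are above 0 with 7606596 at 3 h and below 0 in untreated seedlings at 12 h, with the widest range in AT3G22620.

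Genes that lie beside the 2 on the chromosome were looked at after the values had been seen. AT3G22600 (LTPG5), which lies next to AT3G22620, and AT2G48140 (EDA4), next to AT2G48130, had no probe set among those named and kept. Of 22 loci considered, up to 6 on either side, 7 had a kept probe set, and limma called 0 of the 7 with 7606596 at 3 h against untreated seedlings, where 3.09% of all kept probe sets were called higher and 1.93% lower. Their log2 differences ran from -0.67 for AT3G22570 (limma adjusted p = 0.219) to 0.63 for AT2G48090 (limma adjusted p = 0.251). AT3G22620 overlaps its neighbour PBD1, a proteasome subunit gene, in the reference annotation, and whether the probe set reads both was not tested.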

How the data were processed

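Whole-seedling RNA was measured on 14 ATH1 arrays. The deposited values are MAS5 signal intensities, per the labels, with no version given; MAS5 scales each array on its own, and each array's mean, trimmed to the central 96% of its probe sets, was 500.05. Detection calls were not used here and no genome build is named. Of 22810 probe sets, 64 controls were left out and the 15922 whose mean signal reached the 30th percentile (42.3) were kept. In the annotation 13513 probe sets had 1 gene, 503 had several and 8730 had none, so many listed genes were not measured.

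Log2 of signal + 16 was modelled by limma 3.58.1 under R 4.3.3 as 1 mean per group, with an empirical Bayes variance trend (7 residual and 11.4 prior degrees of freedom) and two-sided p-values adjusted by Benjamini-Hochberg over all kept probe sets. Differences include the offset and so understate ratios of weak signals. Precision is limited by the number of arrays. Figures were drawn in Python 3.11.15 with matplotlib 3.10.9.

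The 2 genes and all lists (lipid-transfer family, suberin, cutin and wax, root and shoot epidermis markers) were chosen with earlier results of these data known. The rule for naming took the 2 genes, the 6 probe sets most correlated with each, the called genes of each list in each comparison of a compound, and 2 neighbouring genes. The other genes named were chosen after their values were seen. Offset, filter, variance trend, quantile scaling, replicate block, arrays in the fit and each array left out were varied.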

Additional observations from a re-analysis of the deposited data

How the results depend on the processing

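Leaving out single arrays turned the sign only of small differences. For AT2G48130 the ranges were -0.13 to 0.32 for 5929745 against untreated seedlings at 3 h, -0.11 to 0.10 at 12 h (0.065 under quantile scaling), -0.33 to 0.12 for the change of that effect, -0.027 to 0.60 for 7606596 against untreated seedlings at 12 h and -0.022 to 0.60 against 5929745 at 12 h. For AT3G22620 they were -0.29 to 0.062 for 5929745 at 3 h and -0.039 to 0.45 at 12 h. The 10 calls stood under all alternatives, except that AT3G22620 between 3 h and 12 h with 5929745 ran from -1.02 to -0.67, with an adjusted p of 0.0675 in limma without 5929745 3 h replicate 1. Among the differences with 7606596, an offset of 64, which shrinks weak signals by construction, gave for AT2G48130 2.25 against untreated seedlings and 2.18 against 5929745 at 3 h, -1.21 for 12 h against 0 h, -2.05 for the change of the effect and -2.32 for 12 h against 3 h, and for AT3G22620 -3.18 for 12 h against 3 h. Single arrays moved AT2G48130 between 0.89 and 1.55 (3 h against 0 h), -1.84 and -1.19 (12 h against 0 h), -2.67 and -2.04 (change of the effect) and -3.05 and -2.42 (12 h against 3 h), and AT3G22620 between 1.08 and 1.64 (3 h against 0 h) and -2.36 and -1.80 (12 h against 0 h). In the family list the count called higher with 7606596 at 3 h became 1 with no filter, an offset of 64 or quantile scaling, that at 12 h became 1 under quantile scaling, and that with 5929745 at 3 h became 1 with an offset of 64. The count called lower with 7606596 at 12 h became 0 with no filter or no variance trend, and without single arrays it ran from 0 to 1, as did the counts higher with 5929745 at 12 h and higher with 7606596 than 5929745 at 12 h. The causes were not tested. Equal replicate numbers did not pair the arrays (deviations from group means correlated at -0.20 to 0.12 over 21 pairs of groups, 1 above 0.1), and the replicate block changed no call: 5929745 at 3 h against 0 h stayed at -1.43 for AT3G22620. A group of 2 arrays limits every value, and a group left with 1 array is assumed to vary like the others.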

Other observations

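Both genes were called lower with 5929745 at 3 h than in untreated seedlings at 0 h, and both had been chosen for being higher with 7606596 than in untreated seedlings at 3 h. These comparisons share no array, and the overlap of their lists was looked at after the values had been seen. Of the 492 probe sets called higher by limma with 7606596 at 3 h, 50 (10.2%) were among the 658 called lower with 5929745 at 3 h against 0 h, which is 7.60% of those 658. The 2 lipid-transfer genes lie among the 50, but their place among the 492 follows from how they were chosen. Over all kept probe sets 4.13% were called lower in that comparison. A larger number, 98 of the 492 (19.9%), were called higher with 5929745 at 3 h against 0 h, or 11.1% of the 883 so called, where 5.55% of all kept probe sets were. Among the 307 probe sets called lower with 7606596 at 3 h, 43 (14.01%) were called higher with 5929745 against 0 h and 12 (3.91%) were called lower. No test was made of these overlaps.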
